A study of Homo sapiens with 9 samples.

Results

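The Krüppel-like factors KLF2, KLF3, KLF4, KLF5, KLF6, KLF7, KLF9, KLF10, KLF11 and KLF13 were followed in 143B cells treated with XD23. The rows of the deposited table of transcript levels whose Ensembl identifier carries 1 of these 10 symbols were taken, which gave 10 genes of 36810. They were chosen by their measured levels, since several stood higher at 48 h, so the 48 h values are given as a description with no test. 143B is an established human osteosarcoma line, derived by transformation of the line HOS with a viral Ras oncogene. The cells were grown in RPMI-1640 medium with fetal bovine serum and antibiotics. Polyadenylated RNA was sequenced in 3 groups of 3 libraries, namely control cells at 0 h, cells given 0.5 µM XD23 for 24 h and cells given 0.5 µM XD23 for 48 h. The labels give the compound only as XD23. With no vehicle named, and with control cells at 0 h alone, effects of the compound and of time in culture cannot be told apart. The labels leave unsaid whether replicates were separate cultures, so p-values measure only the spread between libraries.

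Krüppel-like factors are transcription factors that end in a conserved block of zinc fingers, with which they bind GC-rich boxes and CACCC boxes in promoters. Outside the fingers they differ, and they are usually sorted by the partners they recruit. KLF2, KLF4, KLF5, KLF6 and KLF7 bind acetyltransferases and mostly activate genes, KLF3, KLF8 and KLF12 bind the corepressor CtBP, and KLF9, KLF10, KLF11, KLF13, KLF14 and KLF16 bind the corepressor Sin3A. The SP factors carry the same kind of fingers and compete for many of the same boxes. Several family members are early response genes, and KLF10, first cloned from human osteoblasts, and KLF11 are known as TGF-β-inducible early genes.

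Stretches of promoter sequence are shown for 4 of the genes, because 3 of them (KLF2, KLF6 and KLF7) stood higher at 48 h and KLF5 stood about level. They come from RefSeq (GRCh38.p14), which gave windows for 8 of the 10 genes, with KLF3 and KLF10 named only. Each stretch starts 250 bases before a RefSeq transcription start and stops at that start or at the first exon that GENCODE gives the gene. Capitals mark matches to any of 9 motifs, searched on both strands.
KLF2 promoter, chr19:16324576-16324816, plus strand: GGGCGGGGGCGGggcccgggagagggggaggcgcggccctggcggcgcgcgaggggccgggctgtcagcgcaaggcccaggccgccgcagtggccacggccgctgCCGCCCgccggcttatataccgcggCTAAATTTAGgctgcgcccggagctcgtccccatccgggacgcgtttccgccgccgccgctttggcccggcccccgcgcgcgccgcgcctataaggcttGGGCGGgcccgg
KLF6 promoter, chr10:3785282-3785459, minus strand: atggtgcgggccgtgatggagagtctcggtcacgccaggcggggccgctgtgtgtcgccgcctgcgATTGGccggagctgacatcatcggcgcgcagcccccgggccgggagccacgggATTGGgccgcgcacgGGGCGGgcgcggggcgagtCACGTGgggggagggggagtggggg
KLF7 promoter, chr2:207167268-207167496, minus strand: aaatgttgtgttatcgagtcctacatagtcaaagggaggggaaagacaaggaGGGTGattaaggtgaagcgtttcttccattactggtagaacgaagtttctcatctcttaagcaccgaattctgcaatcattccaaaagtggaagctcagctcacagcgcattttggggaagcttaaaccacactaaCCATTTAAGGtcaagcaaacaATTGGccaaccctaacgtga
KLF5 promoter, chr13:73054726-73054975, plus strand: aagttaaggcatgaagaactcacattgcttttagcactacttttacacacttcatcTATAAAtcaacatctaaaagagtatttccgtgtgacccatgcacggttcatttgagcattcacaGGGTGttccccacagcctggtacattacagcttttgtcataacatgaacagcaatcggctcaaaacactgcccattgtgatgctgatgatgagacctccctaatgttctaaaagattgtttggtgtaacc

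The motifs were the CACCC box (CACCC or GGGTG), the GC box (GGGCGG or CCGCCC), the CCAAT box (CCAAT or ATTGG), the TATA box (TATAAA or TTTATA), the cAMP response element (TGACGTCA), the AP-1 site (TGACTCA or TGAGTCA), the E-box (CACGTG), the CArG box and the MEF2 site. The KLF2 stretch held 4 GC boxes and 1 MEF2 site, CTAAATTTAG. A MEF2 site was found in 0.515% of the 35116 windows of 250 bases in the table and in 1 of the 13 windows of these genes. MEF2 factors bind such sites and are known to drive KLF2 in endothelial cells. The KLF6 stretch held 2 CCAAT boxes, 1 GC box and 1 E-box, a motif present in 6.34% of all windows. The KLF7 stretch held 1 CArG box, CCATTTAAGG, the motif of serum response factor, which 1.16% of all windows held. It also held 1 CACCC box and 1 CCAAT box. The KLF5 stretch held 1 TATA box, present in 10.7% of all windows, and 1 CACCC box. A second KLF5 window, not shown, held 2 GC boxes, 2 CACCC boxes, 2 CCAAT boxes and no TATA box. Another KLF7 window, also not shown, held 4 GC boxes. The stretches shown therefore do not stand for all starts of these genes. Among all 13 windows, 8 held a GC box and 6 held a CACCC box, against 42.6% and 54.7% of all windows. A match describes letters and not binding. In the KLF2 stretch the first 2 GC boxes adjoin without overlapping.

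The 9 libraries held 18341542 to 22901830 fragments, worked out from the deposited values, with levels given as FPKM, fragments per kilobase of gene scaled to the library's fragment total. The third 24 h library stood apart from the other 8 on the second principal component of all tested genes, at 24.7 against -9.1 to 7, so the 24 h values of the 10 genes are also given without it. The identity of the cells was checked with 10 markers of the osteoblast lineage. Vimentin, SPARC, RUNX2 and SPP1 lay above 1 FPKM in every library, while the osteoblast markers ALPL, BGLAP and SP7 lay near 0 and IBSP was not analysed here. The collagen genes COL1A1 (0.197 to 0.703 FPKM) and COL1A2 (at most 0.0548 FPKM) were also low. SPARC, RUNX2 and SPP1 were lower at 48 h, at 0.672-fold, 0.662-fold and 0.513-fold the control mean (limma, adjusted p at most 0.000366), while vimentin was not called (1.17-fold, adjusted p = 0.0935). The whole list summed to 380.0 to 409.0 FPKM at 48 h and 349.0 to 361.0 FPKM in control, most of it vimentin. The endothelial markers PECAM1, VWF, CDH5, TEK and KDR, listed because KLF2 and KLF4 are prominent in endothelium, summed to 0.758 to 0.846 FPKM at 48 h and 0.44 to 0.556 FPKM in control. PECAM1 made up most of that sum, with means of 0.386 FPKM at 0 h, 0.25 at 24 h and 0.658 at 48 h, and did not pass the filter. VWF and CDH5 lay between 0 and 0.0411 FPKM throughout, and 4 leukocyte markers summed to at most 0.235 FPKM. The 3 epithelial markers in the table summed to 2.52 to 2.98 FPKM at 48 h and 3.52 to 4.29 FPKM in control. Nearly all of it was EPCAM, with means of 3.88 FPKM at 0 h, 4.03 at 24 h and 2.75 at 48 h. EPCAM was lower at 48 h (0.71-fold, limma, adjusted p = 0.0186). The part of these markers in the 48 h levels was not tested.

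All 10 genes passed the filter of at least 1 FPKM in at least 3 libraries, and they covered a wide range of levels. KLF6 stood highest in every group, at 42.9 ± 0.384 FPKM at 0 h, 40.9 ± 0.637 at 24 h and 61.1 ± 1.82 at 48 h (SD, n = 3). In control cells the order below it was KLF7 (17.9), KLF10 (15.5), KLF2 (13.1), KLF13 (12.2), KLF9 (10.4), KLF3 (9.98), KLF4 (8.95), KLF5 (3.57) and KLF11 (1.85 FPKM). The libraries of KLF2 and KLF13 overlapped in that order, as did those of KLF9 and KLF3, and the other neighbours did not overlap. KLF6 lay above 94.2% of the tested genes in control cells and KLF11 above 20.3%. At 48 h the order was KLF6, KLF7, KLF10, KLF2, KLF9, KLF13, KLF3, KLF4, KLF5 and KLF11, with KLF7 and KLF10, KLF9 and KLF13, and KLF3 and KLF4 overlapping. KLF9 thus stood 5th at 48 h and 6th at 0 h. The summed level of the 10 genes was 136.0 ± 3.38 FPKM at 0 h, 135.0 ± 1.87 at 24 h and 192.0 ± 6.31 at 48 h, and KLF6 made up 29.8% to 32.1% of the sum in each library. The values rested on 150 to 253 fragments per library for KLF11 and on 4797 to 8878 for KLF6. Most of these fragment numbers rest on the smallest gene length that made all 9 values whole, while KLF6 and KLF7 matched the GENCODE length.

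**Figure D1:**
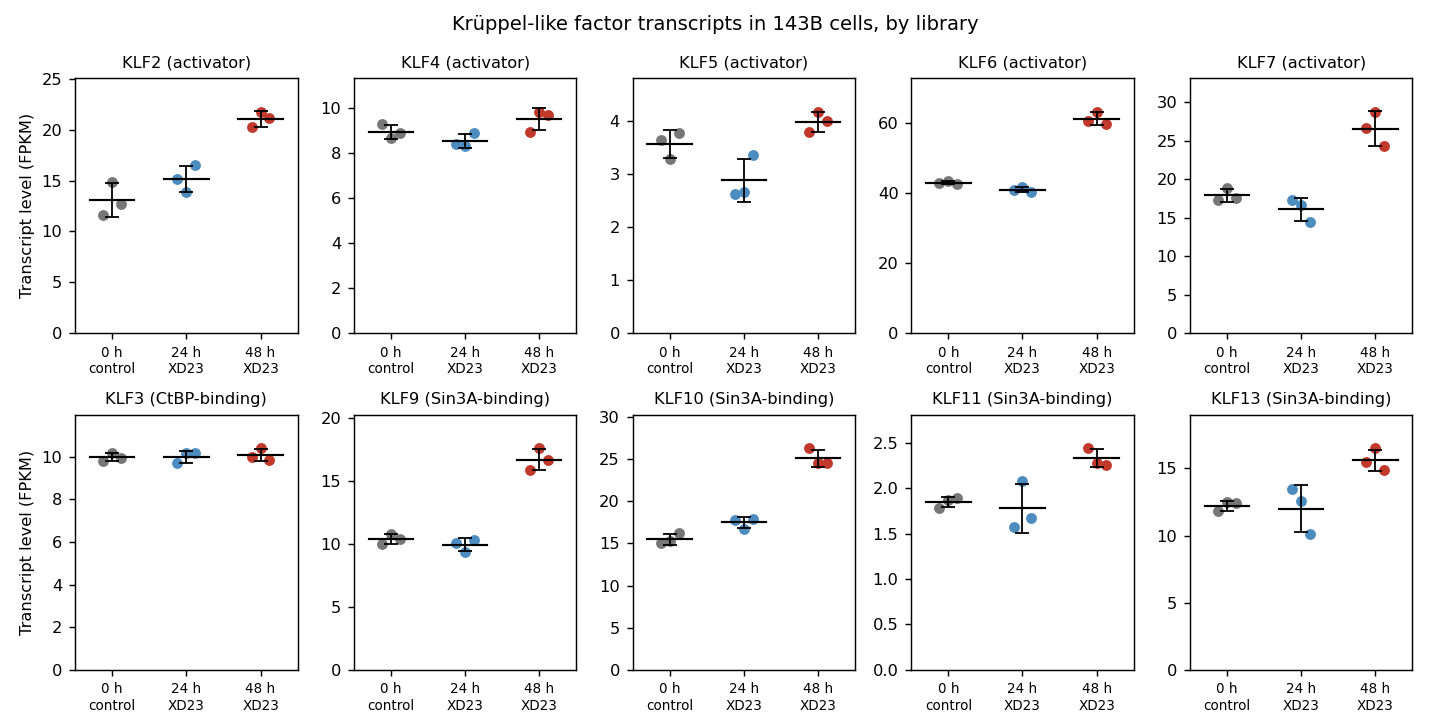
Levels of the 10 Krüppel-like factor transcripts (y axes, FPKM, from 0) in each library (points) of the 0 h control, 24 h XD23 and 48 h XD23 groups, with the mean (line) and SD (bar) of 3 libraries. In all but KLF3 and KLF4 every 48 h library lay above the other 6, for KLF5 by a narrow margin, while KLF3 lay at 9.7 to 10.4 FPKM in all 9.

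Among the activators, KLF2, KLF6 and KLF7 stood higher at 48 h, and KLF4 and KLF5 lay close to control. KLF2, which keeps endothelial cells and T cells quiescent, had 11.6, 14.9 and 12.7 FPKM at 0 h, 15.2, 13.9 and 16.5 at 24 h and 20.3, 21.8 and 21.2 at 48 h. The 24 h libraries overlapped the controls and the 48 h libraries lay above both, with a mean 1.61-fold that of control. KLF6, described as a tumour suppressor in several carcinomas, had 42.7, 43.3 and 42.6 FPKM at 0 h, 40.8, 41.5 and 40.3 at 24 h and 60.5, 63.1 and 59.7 at 48 h. Its 48 h mean was 1.43-fold that of control, and the spread within each group was small beside that step. KLF7, known for its part in axon growth, had 17.3, 18.9 and 17.6 FPKM at 0 h, 17.3, 16.6 and 14.5 at 24 h and 26.7, 28.8 and 24.3 at 48 h. The lowest 24 h value of KLF7 came from the third library, which stood apart, and the 48 h mean was 1.49-fold that of control. In bulk RNA, more transcript per cell and more cells carrying it cannot be told apart.

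KLF4, a reprogramming factor and regulator of epithelial differentiation, had 9.29, 8.68 and 8.89 FPKM at 0 h, 8.4, 8.31 and 8.9 at 24 h and 8.97, 9.86 and 9.72 at 48 h. Its 48 h libraries overlapped the controls, and the mean was 1.06-fold that of control. KLF5, which promotes proliferation in intestinal crypts and smooth muscle, had 3.64, 3.28 and 3.78 FPKM at 0 h, 2.62, 2.66 and 3.36 at 24 h and 3.79, 4.18 and 4.0 at 48 h. All 3 KLF5 libraries at 48 h lay above the controls, by a margin that was small for the nearest pair, and the mean was 1.12-fold that of control. Against 24 h, the KLF5 mean at 48 h was 1.39-fold and that of KLF4 1.11-fold, since both lay lowest at 24 h.

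KLF3, the CtBP-binding repressor of the group, was level. It had 9.81, 10.2 and 9.95 FPKM at 0 h, 9.7, 10.2 and 10.2 at 24 h and 10.0, 10.4 and 9.83 at 48 h. The 3 groups overlapped, and the 48 h mean was 1.01-fold that of control. Of its stretches of 50 bases, 3.99% are shared with other annotated genes, most of them with the antisense gene KLF3-AS1. KLF2, KLF4, KLF5, KLF6, KLF9 and KLF10 share none.

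The 4 chosen Sin3A-binding factors stood higher at 48 h by different amounts. KLF9, a gene induced by glucocorticoid and thyroid hormone, had 9.98, 10.8 and 10.4 FPKM at 0 h, 10.1, 9.34 and 10.3 at 24 h and 15.9, 17.6 and 16.7 at 48 h. The 24 h libraries of KLF9 overlapped the controls, and the 48 h mean was 1.61-fold that of control. KLF10 had 15.0, 15.3 and 16.3 FPKM at 0 h, 17.8, 16.7 and 17.9 at 24 h and 26.3, 24.6 and 24.5 at 48 h. KLF10 was the single gene of the 10 whose 3 groups followed each other upward with no overlap, with a 48 h mean 1.62-fold that of control. KLF11, its closest relative, had 1.78, 1.87 and 1.89 FPKM at 0 h, 1.57, 2.08 and 1.67 at 24 h and 2.44, 2.28 and 2.26 at 48 h. The KLF11 mean at 48 h was 1.26-fold that of control, and 8.09% of its stretches of 50 bases are shared with another annotated gene. KLF13, an activator of the chemokine gene CCL5 in T cells, had 11.8, 12.5 and 12.4 FPKM at 0 h, 13.5, 12.6 and 10.1 at 24 h and 15.5, 16.5 and 14.9 at 48 h. Its 48 h mean was 1.27-fold that of control, and its lowest 24 h value again came from the third library.

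Counted by limma at an adjusted p under 0.05, 6 of the 10 genes were higher at 48 h and 0 lower, where 13.3% of all 13657 tested genes were called higher and 15.2% lower. Because the genes were picked for this difference, nothing is read from that count. With median-of-ratios scaling, 2155 of all genes were higher and 1617 lower, against 1811 and 2080 with the values as deposited. In 8 of the 10 genes all 48 h libraries lay above all controls, as in 22.7% of all genes. Against 24 h, with which the 48 h libraries are shared, 8 of the 10 were called higher, beside 16.0% of all genes called higher and 32.3% called either way. In 9 of the 10 all 48 h libraries lay above all 24 h libraries, as in 23.1% of all genes.

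**Figure D2:**
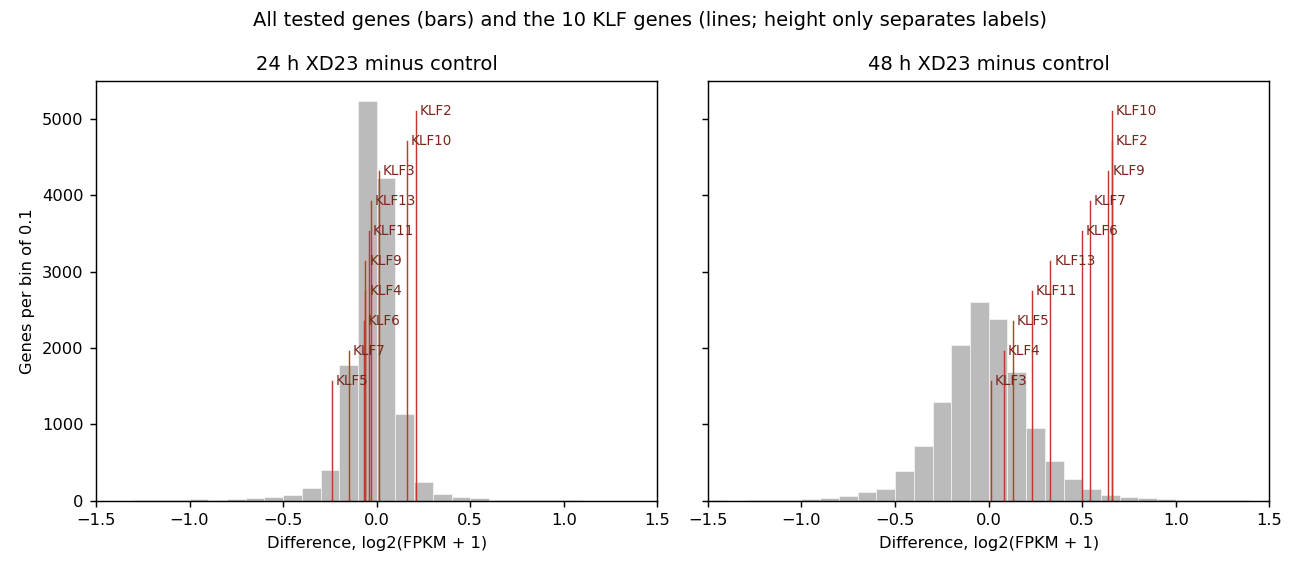
Distribution of the differences of all 13657 tested genes (grey bars, genes per bin of 0.1, x axis in log2(FPKM + 1)) at 24 h and 48 h against control, with the 10 Krüppel-like factors marked by red lines whose height only separates the labels. At 24 h the lines lie between -0.24 and 0.21, and at 48 h between 0.01 and 0.66.

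The 24 h comparison was not used to pick the genes, although it shares the control libraries, and it was tested with limma over all genes. None of the 10 was called at 24 h, where 1 of 13657 genes was called (0.00732%), the small nuclear RNA pseudogene RNU6-548P, named here after its value was seen. Their median difference was -0.05 on the log2(FPKM + 1) scale, and that of all genes was -0.02. At an unadjusted p under 0.05, limma gave 3 of the 10 (KLF10, KLF5 and KLF2) and 7.43% of all genes. KLF10 was 0.16 ± 0.05 higher on that scale (SE; limma, adjusted p = 0.534), with all 3 libraries at 24 h above the controls, as in 4.81% of all genes. KLF2 differed by 0.21 ± 0.09 (adjusted p = 0.649, limma) and KLF5 by -0.24 ± 0.08 (adjusted p = 0.576, limma), both with overlapping libraries. KLF6 differed by -0.07 ± 0.03 (adjusted p = 0.695, limma), with all 24 h libraries below the controls, as in 8.38% of all genes. The other 6 genes differed by -0.15 to 0.01, with adjusted p of 0.722 to 0.975 in limma. Without the third 24 h library the values were 0.14 for KLF10, 0.15 for KLF2, -0.32 for KLF5, -0.06 for KLF6, -0.07 for KLF7, -0.09 for KLF4 and KLF9 and -0.01 for KLF11. KLF3 (within 0.01 of 0) and KLF13 (0.08) changed sign, and none of the 10 was called. The missing calls do not show that the levels were equal.

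The rest of the family was tested at both times from a list of 8 KLF genes. KLF12, a CtBP-binding repressor, rose at 48 h, while KLF15 and KLF16 were not called. KLF12 had 2.19, 2.2 and 2.37 FPKM at 0 h, 2.22, 2.09 and 1.92 at 24 h and 3.77, 3.91 and 3.27 at 48 h. Its 48 h libraries lay above the other 6, by 0.51 ± 0.07 against control on the log2(FPKM + 1) scale (SE; limma, adjusted p = 0.00102). Its CtBP-binding relative KLF3 differed by 0.01 ± 0.04 at 48 h. KLF15, a metabolic regulator, lay at 0.425, 0.729 and 0.77 FPKM at 48 h and at 1.1, 0.853 and 1.16 FPKM at 0 h (-0.32 ± 0.13, adjusted p = 0.115, limma). KLF15 passed the filter only through libraries at 24 h and 0 h, so nothing is read from its difference. KLF16 lay at 6.15 ± 0.463 FPKM at 48 h and 6.44 ± 0.312 at 0 h (SD, n = 3; -0.06 ± 0.06, adjusted p = 0.468, limma). KLF14 lay below the filter at 0.56 ± 0.0618 FPKM at 48 h and 0.43 ± 0.05 at 0 h, and KLF1 and KLF17 lay at or near 0 in all libraries. KLF8 and KLF18 were not analysed here.

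None of the 6 tested SP genes was called at either time, among 9 on the list. The widely expressed SP1 lay at 21.2 ± 0.993 FPKM at 48 h and 22.0 ± 0.933 at 0 h, and SP3 at 10.6 ± 0.64 and 10.8 ± 0.0962 FPKM (SD, n = 3). At 48 h the 6 genes differed by -0.15 to 0.2 on the log2(FPKM + 1) scale, with a median of -0.04 beside -0.02 for all genes, and 1 of them, SP4, passed an unadjusted p of 0.05, as 40.1% of all genes did (-0.15 ± 0.05, adjusted p = 0.0615, limma). At 24 h the count at an unadjusted p under 0.05 was 0. SP4 was called lower at 48 h when the third 24 h library was left out. SP5, SP7 and SP8 did not pass the filter.

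**Figure D3:**
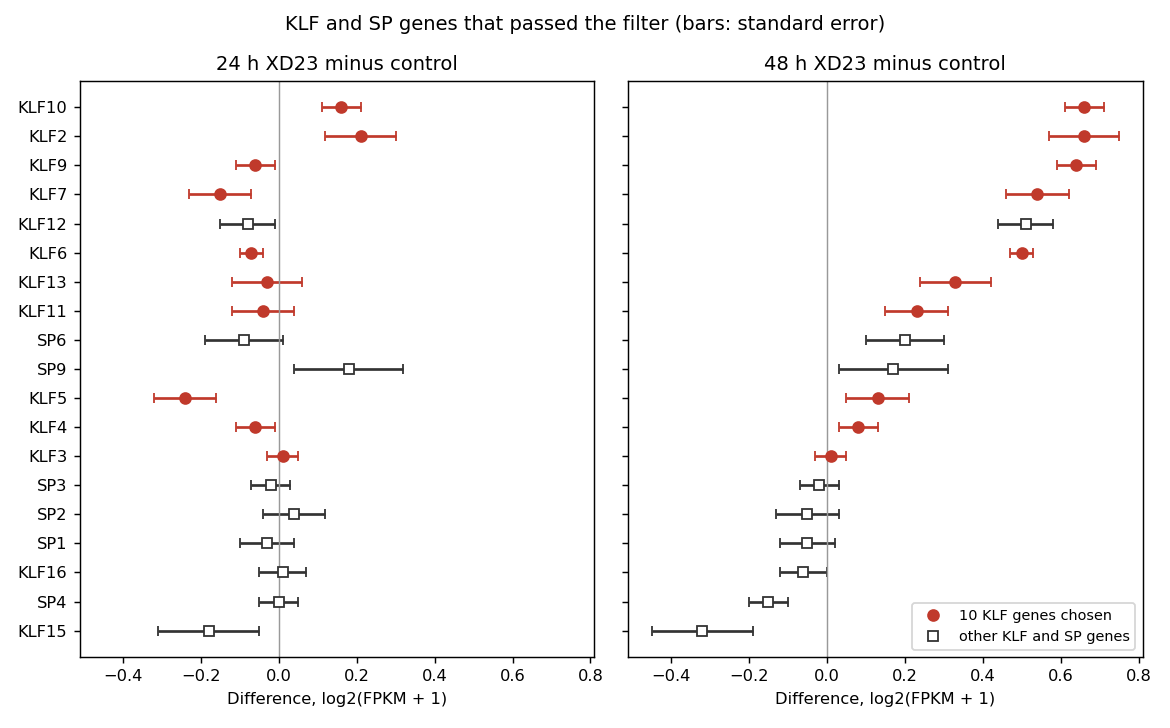
Differences from control at 24 h (left) and 48 h (right) on the log2(FPKM + 1) scale, with standard errors, for the 10 chosen Krüppel-like factors (filled circles) and the 9 other KLF and SP genes that passed the filter (open squares). At 48 h KLF12 (0.51) lies among the chosen genes, and SP1, SP2, SP3, SP4 and KLF16 lie between -0.15 and -0.02.

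Genes around the family were taken from 5 lists, chosen with earlier results of these data known. Counts over these lists are a description, and no cause was tested. Of 14 cofactors, 2 rose at 48 h, 1 fell and 11 were not called, where 13.3% of all genes rose and 15.2% fell, so the cofactors did not stand out from that background. Their median was 0.02 beside -0.02 for all genes. The corepressor CTBP2 rose to 11.9 ± 0.307 FPKM at 48 h, against 10.1 ± 0.00762 at 0 h (SD, n = 3; 0.22 ± 0.04, adjusted p = 0.00445, limma). FHL3, a LIM-domain partner of KLF3, rose by 0.29 ± 0.08 (adjusted p = 0.0238, limma), and the acetyltransferase gene KAT2B fell by 0.20 ± 0.06 (adjusted p = 0.0469, limma). The FHL3 call ended without a filter, without control replicate 1 or 2, or without any 48 h library (adjusted p 0.0568 to 0.0802), and the KAT2B call in 12 of 17 alternatives. CTBP1, SIN3A, SIN3B, HDAC1, HDAC2 and HDAC3 were not called, at -0.07 to 0.05.

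Of 13 tested genes that are known to induce family members, 7 rose at 48 h and 0 fell, beside 13.3% and 15.2% of all genes, with a median of 0.18 beside -0.02. EGR1, a zinc finger factor that induces KLF5 in smooth muscle, had 72.8, 77.0 and 78.3 FPKM at 48 h and 29.3, 31.3 and 29.4 FPKM at 0 h (1.31 ± 0.05, adjusted p = 6.36e-06, limma). The FOXO1 transcripts, whose protein activates KLF2 in lymphocytes, had 2.6, 2.18 and 2.22 FPKM at 48 h and 1.16, 1.29 and 1.48 FPKM at 0 h (0.53 ± 0.08, adjusted p = 0.00201, limma). FOXO3 (0.26 ± 0.06, adjusted p = 0.00928) and SMAD4, the shared SMAD of TGF-β signalling (0.25 ± 0.06, adjusted p = 0.0122), also rose in limma. The other genes that rose were MEF2A, SMAD3 and TGFBR1, by 0.18 to 0.20. MEF2D, the kinase gene MAPK7 and the glucocorticoid receptor gene NR3C1 were not called. Without control replicate 1, or without 48 h replicate 2, the count of 7 became 4.

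The protein turnover list held 8 tested ubiquitin ligases and deubiquitinases, of which SMURF1, a ligase for KLF2, rose and 7 were not called, a share near the 13.3% of all genes that rose. SMURF1 had 8.02, 8.41 and 8.39 FPKM at 0 h, 7.65, 7.37 and 6.71 at 24 h and 10.6, 10.1 and 10.2 at 48 h (0.29 ± 0.05 at 48 h, adjusted p = 0.00355, limma). The ligase WWP1, which acts on KLF2 and KLF5, averaged 8.09 ± 0.295 FPKM at 48 h and 8.12 ± 0.739 at 0 h (SD, n = 3; adjusted p = 0.989, limma).

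Genes described elsewhere as targets of family members moved both ways. Of 15 tested targets, 8 rose and 4 fell at 48 h, beside 13.3% and 15.2% of all genes, with a median of 0.25 beside -0.02. LGALS3, encoding galectin-3 and repressed by KLF3 in mouse cells, rose by 0.57 ± 0.08 (adjusted p = 0.00117, limma). The cell cycle inhibitor CDKN1A, activated by KLF4 and KLF6, rose by 0.47 ± 0.06 (adjusted p = 0.000958, limma) and its relative CDKN1B by 0.25 ± 0.05 (adjusted p = 0.00965, limma). CCNE1, the cyclin gene that KLF4 represses, had 4.68, 4.93 and 5.02 FPKM at 48 h and 9.56, 8.58 and 8.75 FPKM at 0 h (-0.76 ± 0.06, adjusted p = 9.63e-05, limma). S1PR1, a KLF2 target in T cells, had 0.339, 0.309 and 0.377 FPKM at 48 h and 0.89, 1.1 and 0.981 FPKM at 0 h (-0.57 ± 0.09, adjusted p = 0.00221, limma). At 24 h S1PR1 had 1.22, 1.08 and 1.12 FPKM. It passed the filter only through libraries at 24 h and 0 h, so nothing is read from its call. The thrombomodulin gene THBD, another KLF2 target, was not called at 48 h (0.2 ± 0.07, adjusted p = 0.0582, limma). Its 48 h libraries all lay above the controls, as in 22.7% of all genes. Whether KLF2 had a part in the level of either gene was not tested. SMAD7, which KLF10 represses, fell by 0.17 ± 0.05 (adjusted p = 0.0262, limma). PLAU, also on the list, was lower (-0.38 ± 0.04, adjusted p = 0.000324, limma), and CCND1 was not called (0.02 ± 0.04, adjusted p = 0.76, limma). CDKN1A, CDKN1B, THBD, SMAD7, PLAU and CCND1 were named after their values were seen.

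KLF9 is a glucocorticoid-induced gene, so 7 other genes of that response were tested, of which 5 rose at 48 h, 0 fell and 2 were not called, beside 13.3% of all genes higher and 15.2% lower. Their median was 0.34 beside -0.02 for all genes. This list too was chosen with earlier results known, and a part of glucocorticoid signalling in the KLF9 level was not tested. CEBPD had 8.99, 11.1 and 10.2 FPKM at 48 h and 3.79, 4.48 and 4.57 FPKM at 0 h (1.07 ± 0.11, adjusted p = 0.000279, limma). TSC22D3, which encodes the glucocorticoid-induced leucine zipper, rose by 0.52 ± 0.05 (adjusted p = 0.000253, limma), the clock gene PER1 by 0.43 ± 0.09 (adjusted p = 0.00728, limma) and the phosphatase gene DUSP1 by 0.34 ± 0.06 (adjusted p = 0.00313, limma). FKBP5, one of the most widely used markers of the response, averaged 6.6 ± 0.221 FPKM at 48 h and 6.61 ± 0.323 at 0 h and was not called (SD, n = 3; adjusted p = 0.981, limma). At 24 h none of the 57 tested genes in the 5 lists was called by limma, and 7 had an unadjusted p under 0.05, beside 7.43% of all genes.

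**Figure D4:**
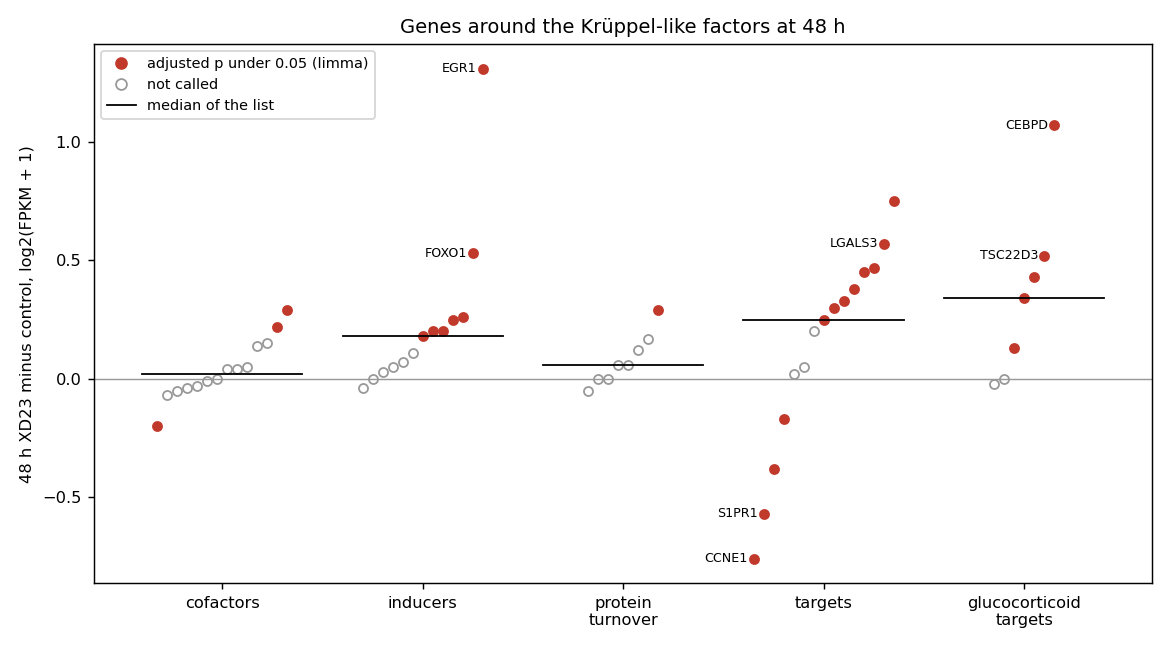
Differences at 48 h against control (y axis, log2(FPKM + 1)) of the tested genes of 5 lists, each point 1 gene, filled where the adjusted p was under 0.05 in limma, with the list median as a line. Medians run from 0.02 for the cofactors to 0.34 for the glucocorticoid targets, and EGR1 (1.31) and CEBPD (1.07) lie highest.

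Across the 9 libraries the levels of KLF6, KLF7 and KLF9 followed each other most closely, with Pearson r of 0.95 to 0.99 on log2(FPKM + 1). KLF4 followed KLF5 (r = 0.9) more than any of the others, and r between KLF3 and the other 9 was 0.06 to 0.35. These correlations describe libraries that share their groups and depth, and carry no test. Among other genes averaging 5 FPKM or more (6930 or 6931 genes), the pattern most like that of KLF6 was DCBLD2 (r = 0.997) and then RNF144A (0.996). For KLF9 it was CORO2B (0.996) and KANSL3 (0.994), for KLF7 ZNF24 (0.995) and SLC5A3 (0.992), for KLF10 MOB1A (0.996) and FSCN1 (0.992), and for KLF13 IGF1R and ECE1 (both 0.992). KLF4 was most like DUSP5 and CFAP36 (both 0.981), and KLF5 most like TM4SF1 (0.986) and PTX3 (0.968), whose means were also lowest at 24 h. PTX3 averaged 20.1 FPKM at 0 h, 17.8 at 24 h and 22.7 at 48 h. KLF2 was most like TFG (0.966), KLF11 like FAF2 (0.958) and DNAJC6 (0.957), and KLF3 least strongly, with SLC4A1AP (0.888) and PRR7 (0.874).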

How the data were processed

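Libraries were made from polyadenylated RNA with random hexamer primers and sequenced in pairs, per the labels' protocols. The authors deposited FPKM for 36810 genes in 9 libraries and did not pool replicates. The submitters' processing notes list hg38 as the build, with HISAT2, Subread, featureCounts and DESeq2 as tools. Their versions and settings, and whether counting used strand, were not given there, so reads of a gene and of an antisense partner may be mixed. Symbols were found for 36724 identifiers and GENCODE release 29 (GRCh38) lengths for 35585. With those lengths, 58.8% of genes gave whole fragments in all libraries to within 0.001 of a fragment, which fixed the library totals.

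Genes with at least 1 FPKM in at least 3 libraries (13657) were tested on log2(FPKM + 1), a scale that understates changes of low genes. Limma 3.58.1 in R 4.3.3 was fitted with 1 mean per group and a variance trend, two-sided, with Benjamini-Hochberg adjustment over all genes and a call at an adjusted p under 0.05. The fit was tested on simulated data with planted differences larger than those of the 10 genes at 24 h. That test does not show what the fit would find at their size. The 10 genes and the lists were chosen with earlier results of these data known. Named genes were all 10, every tested KLF and SP gene and up to 4 called genes per list with the largest differences at 48 h, and the text adds a few list members chosen after their values were seen. Likeness was Pearson r over 9 libraries, with the 2 most alike genes named. A few genes that these rules name are not reported here, though counts and medians include them. The 18 alternatives changed the pseudocount, filter, scaling, trend, samples or block, or left out 1 library. The labels do not pair same-numbered libraries, and they were not paired. Correlations of their deviations ran from -0.0571 to 0.239, and those of differently numbered libraries from -0.192 to 0.128.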

Additional observations from a re-analysis of the deposited data

Results flagged for a closer look

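For 15 named genes outside the 10 chosen ones, the level in cells given XD23 for 48 h differed from that at 24 h (limma, adjusted p under 0.05 over all genes). The differences, 48 h minus 24 h on the log2(FPKM + 1) scale, were 0.6 for KLF12, 0.18 for CTBP2, -0.25 for KAT2B, 1.38 for EGR1, 0.51 for FOXO1, 0.25 for FOXO3, 0.26 for SMAD4 and 0.46 for SMURF1. They were -0.61 for CCNE1, -0.67 for S1PR1, 0.54 for LGALS3, 1.22 for CEBPD, 0.36 for TSC22D3, 0.53 for PER1 and 0.47 for DUSP1. S1PR1 passed the filter only through libraries at 24 h and 0 h, so nothing is read from its value. With no matched controls, compound and time cannot be told apart here. In the same comparison 32.3% of all tested genes were called. Apart from KLF12, these genes were named because they were called at 48 h against control. This comparison shares those 48 h libraries, so nothing is read from their calls. The 10 chosen genes were left out here because they were picked for their 48 h level.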

How the results depend on the processing

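The count of 0 chosen genes called at 24 h stayed at 0 in all 18 alternatives, and the count of 6 higher at 48 h ran from 5 to 7. With 5 FPKM as the filter, KLF12 was no longer tested, so the count of other KLF genes higher at 48 h was 0. The cofactors higher at 48 h numbered 1 without a filter, and those lower 0 without a filter, with 5 FPKM as the filter, with median-of-ratios scaling, with quantile normalization and with only the groups compared. With 5 FPKM as the filter, the cofactor called lower, KAT2B, was no longer tested, since it reached at most 3.6 FPKM. The cause of the other changes was not tested. Leaving out 1 library at a time gave 1 to 2 cofactors higher and 0 to 1 lower, 4 to 7 inducers higher, 0 to 1 SP genes lower, 5 to 7 chosen genes higher, 7 to 9 targets higher and 3 to 4 lower, and 4 to 5 glucocorticoid targets higher at 48 h. At 24 h it moved KLF3 between -0.01 and 0.03, KLF11 between -0.12 and 0.01 and KLF13 between -0.11 and 0.08, each changing sign without being called. KLF6 stood at 0.55 at 48 h after quantile normalization. With the replicate number as a block (replicate block), 6 chosen genes were higher at 48 h and 0 were called at 24 h. The labels do not say that the numbers pair the libraries, and not every library correlated best with its own number. Over all genes, 3733 were called at 48 h with the block and 3891 without it. Without 48 h replicate 2 the number was 2584, and without 24 h replicate 3, which stood apart, it was 5132. KLF11 rests on the fewest fragments of the 10 genes, 150 to 253 per library, and the log scale shrinks changes of low genes.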
